A study of Sus scrofa with 6 samples.

Results

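Immediate early genes are switched on within minutes of a stimulus to a cell, without the need for new protein, and 7 of them were followed here in single-cell libraries of porcine midbrain-like organoids. The genes were chosen by symbol among the 30477 genes counted in every library: EGR1, FOS, FOSB, JUN, ARC, NPAS4 and IER2. Of the 7, 5 were named in the files, and JUN and IER2, which the files list only by Ensembl number, were found through a reference table of gene names. All 7 were detected in every library and passed the filter on low counts in each fit with the main settings.

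The organoids were pig cells of a single embryonic stem cell line, IVF_1_ pESC_FIW, derived from an embryo fertilised in vitro, so every group shares that genotype. They were sampled on day 11 (D11), day 28 (D28) and day 45 (D45) of culture, and each day gave 2 libraries, called replicate A and replicate B. No stimulated arm is among them. All groups had passed through SB431542, Noggin, SHH-C24II and CHIR99021 and then FGF8, BDNF and ascorbic acid. The organoids were later embedded in Matrigel and kept in BDNF, GDNF, ascorbic acid, db-cAMP (a cell-permeable cAMP) and DAPT on an orbital shaker. D28 and D45 therefore came from db-cAMP medium and D11 did not, and medium and day cannot be told apart. The study calls its libraries biological duplicates, while the labels do not say how many organoids went into a library or whether the duplicates were separate cultures, so the p-values measure the spread between these libraries only.

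A nerve cell that fires admits calcium, and calcium, cAMP and MAP kinase signals reach the factors CREB and SRF, which sit ready at the promoters of immediate early genes. FOS and FOSB proteins pair with JUN to form the AP-1 transcription factor, EGR1 is a zinc finger transcription factor, ARC acts at synapses and IER2 is a nuclear protein. EGR1, FOS, FOSB, JUN and IER2 also respond to growth factors, stress and tissue dissociation in many cell types. NPAS4 is known as a transcription factor of neurons that responds chiefly to calcium entry.

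The start sites are shown because cAMP and calcium can act on genes through the cAMP response element, a binding site of CREB. In the lines that follow, each read 5′ to 3′ from the Sscrofa11.1 genome, the capitals mark TGACG, the short form of that element, or CGTCA, the same letters on the other strand, and the TATA boxes TATAAA and TATATA.
EGR1, chr2:140440679-140440828, plus strand, 150 bases up to the annotated start: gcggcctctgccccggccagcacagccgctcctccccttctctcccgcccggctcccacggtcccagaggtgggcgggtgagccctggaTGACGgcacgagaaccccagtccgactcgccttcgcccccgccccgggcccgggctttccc
FOS, chr7:98449258-98449357, plus strand, from 250 to 151 bases before the annotated start: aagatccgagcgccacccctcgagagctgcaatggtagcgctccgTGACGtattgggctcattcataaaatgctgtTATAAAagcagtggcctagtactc
NPAS4, chr2:5995941-5996140, minus strand, 200 bases up to the annotated start: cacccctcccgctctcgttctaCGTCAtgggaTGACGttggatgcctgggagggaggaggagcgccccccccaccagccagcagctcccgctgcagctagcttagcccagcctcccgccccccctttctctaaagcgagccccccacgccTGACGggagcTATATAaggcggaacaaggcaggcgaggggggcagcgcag
The short element was found in the 300 bases before the start of 4 of the 7 genes (EGR1, FOS, NPAS4 and IER2), and in 22.2% of the 19531 annotated promoters. EGR1 held 1 copy, 61 bases before its start, FOS held 1 at 205 and IER2 held 1 at 168. NPAS4 held 3, at 178, 168 and 50 bases before its start, with a TATA box at 40. A TATA box was also read in FOS at 174 bases and in FOSB at 158 and 156, where both strands match the same stretch, against 14.6% of promoters. Within these 300 bases IER2 alone held a CArG box, the SRF binding site, at 209 bases before its start, and 1.59% of promoters hold one. Sites beyond the 300 bases were not read, and the annotated starts were not checked, so a site missed here may lie outside the window. The full element TGACGTCA (1.76% of promoters) and the AP-1 site TGACTCA or TGAGTCA (3.41%) were in none of the 7 windows of 300 bases. JUN and ARC held no match, and the annotated JUN start may lie inside the gene, since the model spans only 1211 bases. A match of letters is a description and not evidence of a bound site.

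EGR1 lies on chromosome 2 at 140440829-140445302, FOS on chromosome 7 at 98449508-98451971, and FOSB on chromosome 6 at 51836780-51844531. JUN lies on chromosome 6 at 153686425-153687635, ARC on chromosome 4 at 1517986-1521403, NPAS4 on chromosome 2 at 5990936-5995940 and IER2 on chromosome 2 at 65909638-65912491. Values are unique molecular identifiers (UMIs, 1 per captured RNA molecule), given as counts per 1000000 UMIs (CPM) of a library or group of cells.

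After filtering, 103519 of 104820 barcodes were kept with 817215572 UMIs, from 106851387 to 180098372 per library. Any pair of libraries shared 55 to 119 barcodes, at most 0.65% of the smaller one. Neurons were taken as cells with 1 or more UMIs of STMN2, which encodes a neuronal microtubule regulator, and these were 58874 cells against 44645 others. They made up 26.8% and 33.4% of cells on D11 and 68.4% to 74.8% on D28 and D45. The class is broad: on D45, 57.7% to 63.6% of the cells carrying fibroblast, astrocyte, oligodendrocyte or ciliated cell markers also held an STMN2 UMI. On D28 so did 64.5% and 52.0% of cells with floor plate markers (replicates A and B), 58.2% and 49.5% with fibroblast markers, and 74.4% and 52.0% with neural progenitor markers. On D11 it was 16.9% and 24.8% of cells with floor plate markers. The labels call the cells midbrain dopaminergic neurons, but cells with 3 or more of TH, DDC, SLC18A2, SLC6A3, DRD2 and RET among neuron-marker cells were 0.547% to 2.31% of each library.

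EGR1 and the FOS genes were low on D11, highest on D28 and in between on D45, and on D28 the replicates were far apart. EGR1 was measured at 7.49 and 7.38 CPM on D11 (replicates A and B). On D28 it reached 197 and 44.5 CPM and on D45 it was at 16.7 and 20.1. FOS was measured at 17.4 and 19.2 CPM in the D11 libraries, 255 and 83.1 in those of D28, and 50.1 and 51.4 in those of D45. For both genes each day's libraries lay apart from those of the other days, with D28 replicate A highest of all. The share of all genes whose days lie apart was not computed, so for all members such remarks only describe the values. FOSB stood at 0.524 and 0.666 CPM on D11, against 7.91 and 2.52 for D28 and 1.42 and 1.53 for D45, in the same order.

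JUN, the partner of the FOS proteins in AP-1, was the least variable of the transcription factors. It was measured at 137 and 151 CPM on D11, at 498 and 261 on D28, then at 253 and 258 on D45. D28 replicate B thus lay beside the D45 libraries, 1.02 times their mean, while replicate A was 1.95 times that mean. NPAS4 was rare on D11, with 28 and 33 UMIs per library (0.177 and 0.183 CPM), and reached 728 and 366 UMIs on D28 (6.81 and 2.90 CPM) and 238 and 118 on D45 (2.00 and 0.928 CPM). Its days did not overlap.

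ARC, the synaptic gene of the set, was low in every library: 0.632 and 0.627 CPM on D11, against 1.08 and 1.43 for D28 and 0.792 and 1.36 for D45. The D28 and D45 ranges overlapped, and both lay above D11. IER2 gave only 5 to 31 UMIs per library. The kit reads the 3' end of transcripts, and whether the counted gene model takes in that end of IER2 was not tested, so its values are those of the UMIs counted and not a measure of how much of its RNA was present. Its levels were 0.133 and 0.144 CPM on D11, against 0.290 and 0.119 for D28 and 0.0926 and 0.0393 for D45. In the last of these the exact 95% Poisson interval ran from 0.0128 to 0.0917 CPM, and such intervals cover counting error only.

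**Figure D1:**
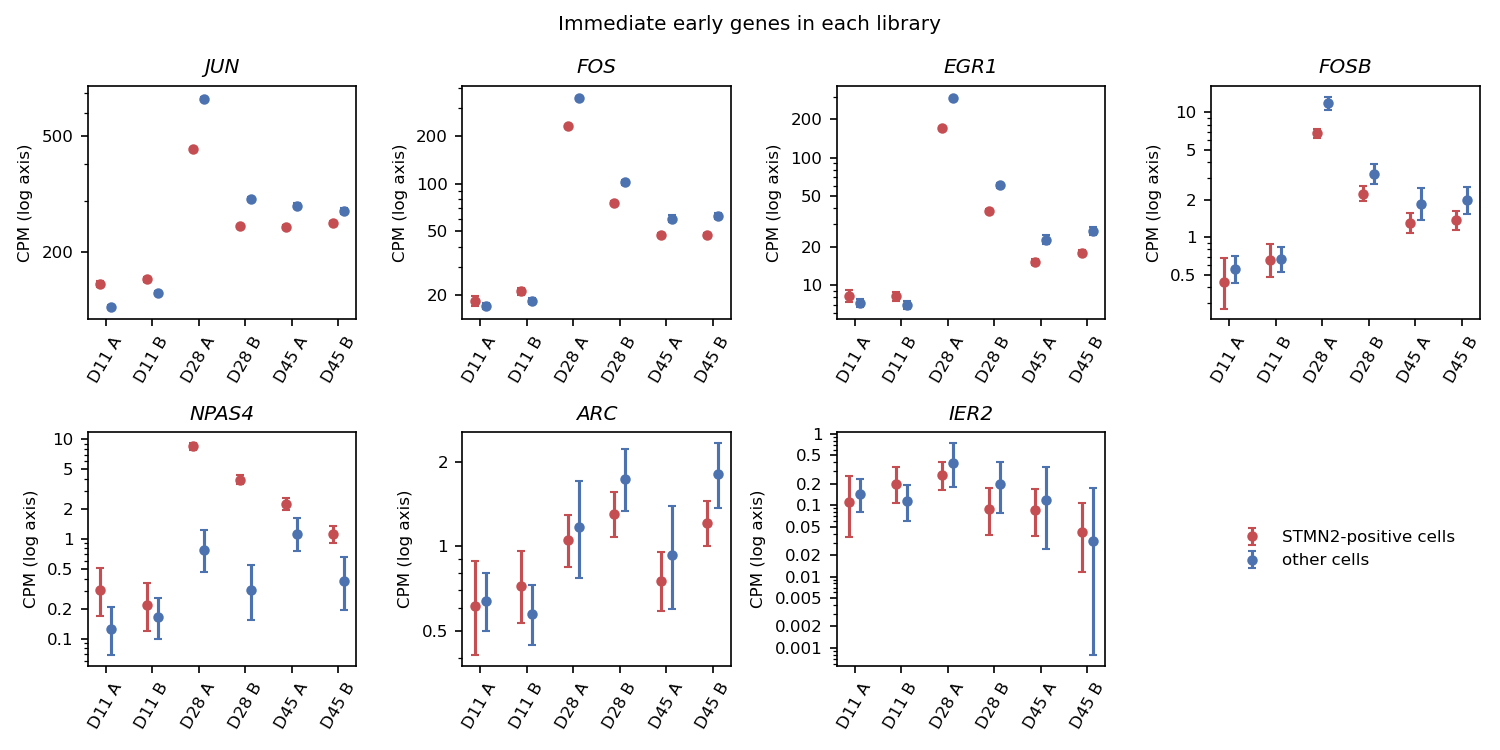
Level of each of the 7 genes in CPM (log axis) in STMN2-positive and other cells of each library, replicate A or B, by day of culture. Over these points EGR1 ran from 6.95 to 295 and NPAS4 from 0.124 to 8.47 CPM, with the highest point of both in D28 replicate A. ARC stayed between 0.573 and 1.81 CPM.

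Between D11 and D28, EGR1, FOS, FOSB and NPAS4 rose in the whole organoids. Summed UMI counts per library were tested with edgeR's quasi-likelihood test, with p-values adjusted over the 22197 genes tested (Benjamini-Hochberg). NPAS4 rose by 4.54 ± 0.63 on the log2 scale (± SE, n = 2 libraries per day, adjusted p = 0.00398), a fitted 23.2-fold difference. EGR1 rose by 3.84 ± 0.71 (adjusted p = 0.0108), FOS by 3.01 ± 0.55 (adjusted p = 0.0103) and FOSB by 2.93 ± 0.60 (adjusted p = 0.0159). The higher calls thus took in 4 of the 7 genes, against 12.5% of all genes tested, with a median difference of 2.93 over the 7 and 0.03 over all genes. JUN (1.18, 95% interval 0.32 to 2.04, adjusted p = 0.0568), ARC (0.72, interval -0.12 to 1.56) and IER2 (0.32, interval -1.07 to 1.70) did not pass. At an unadjusted p under 0.05 there were 5 of the 7, JUN among them, and DESeq2 called 5 of the 7 and 29.6% of all genes. Without D28 replicate A the same 4 genes passed at smaller differences: 3.63 for NPAS4, 2.20 for EGR1, 1.80 for FOS and 1.70 for FOSB. The share of all genes called in either direction, 23.1% in this fit, was 31.8% without that library. Without D11 replicate A or D11 replicate B only 1 of the 7 passed, where 4.82% and 5.36% of all genes were called.

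From D28 to D45, EGR1 was the only 1 of the 7 to pass in edgeR, lower by a log2 difference of -2.94 ± 0.68 (adjusted p = 0.0428), where 4.95% of all genes were called lower. FOS (-1.95, adjusted p = 0.0625), NPAS4 (-1.94, adjusted p = 0.0688) and FOSB (-2.03, adjusted p = 0.0701) did not pass. All 7 fitted differences were below 0, with a median of -1.94 over the 7 and -0.03 over all genes. At an unadjusted p under 0.05 there were 5, and DESeq2 called 4 of the 7 and 19.6% of all genes. This comparison turned on single libraries, for all genes as well as for the 7. None of the 7 passed without D11 replicate A, D11 replicate B, D45 replicate A or D45 replicate B, fits that called 2.39%, 2.4%, 0% and 0.298% of all genes in either direction, against 9.46% with every library. Without D28 replicate A, 2 passed (EGR1 at -1.25 and FOS at -0.69), where 18.2% of all genes did, and without D28 replicate B 6 passed, where 43.8% did.

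On D45, NPAS4 remained above D11, by 2.59 ± 0.59 on the log2 scale (edgeR, adjusted p = 0.0152), where 17.3% of all genes were called higher. FOS stood 1.06 higher (95% interval -0.15 to 2.28), EGR1 0.90 (-0.61 to 2.41) and FOSB 0.90 (-0.46 to 2.26), and none of these passed. All 6 libraries shared 1 estimate of spread, and the gap between the D28 libraries entered it. Without D28 replicate A or D28 replicate B, 6 of the 7 passed, with FOS at 1.12 or 1.06 and EGR1 at 0.95 or 0.89, where 53.4% and 53.7% of all genes were called in either direction. Without D11 replicate A, D11 replicate B or D45 replicate A none passed, where 13.3%, 12.2% and 14.9% of all genes were called. CPM ratios run higher than these fits, since the median gene's CPM was itself 0.301 higher on D28 and 0.396 higher on D45 than on D11 (log2). In sums over whole organoids, fewer cells that express a gene and less RNA per cell cannot be told apart.

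Most of the 7 genes were higher in replicate A of D28 than in replicate B. In replicate A, EGR1 was 4.43 times its level in replicate B, FOSB 3.14 times, FOS 3.07 times, IER2 2.44 times, NPAS4 2.35 times and JUN 1.90 times, and ARC alone was higher in B, 1.33 times. Of the 7 genes, 5 were at least 2 times higher in A, as were 12 of 34 other immediate early genes and 6.78% of all genes, of which 37.3% were higher in A at all. Of 13 heat shock genes, 5 were higher in A and 0 were at least 2 times higher, and their summed level was 5277 CPM in A and 5533 in B. The median mitochondrial share of UMIs was 1.37% in A and 0.814% in B, and cells with fibroblast markers made up 8.85% of A and 0.738% of B. The part of these differences in the levels of the 7 genes was not tested beyond the values within cell groups given later.

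Within STMN2-positive cells alone the same 4 genes rose from D11 to D28 (edgeR, 21393 genes tested). Their log2 differences were 4.46 ± 0.63 for NPAS4 (adjusted p = 0.00524), 3.59 ± 0.71 for EGR1 (adjusted p = 0.0176), 2.86 ± 0.55 for FOS (adjusted p = 0.0162) and 2.91 ± 0.64 for FOSB (adjusted p = 0.0242), where 8.57% of all genes were called higher. At an unadjusted p under 0.05 there were 5 of the 7, and DESeq2 called 5, with 22.7% of all genes. Mean EGR1 in STMN2-positive cells went from 8.16 CPM on D11 to 104 on D28. In cells of a stricter neuron panel, described below, it went from 9.93 to 51.5. In the same order of groups, FOS means went from 19.6 to 153 and from 21.5 to 106. FOSB went from 0.551 to 4.52 and from 0.504 to 2.79, and JUN from 158 to 348 and from 185 to 231. NPAS4 went from 0.261 to 6.20 and from 0.573 to 11.4. The STMN2-positive class also took in cells with floor plate or fibroblast markers, in shares that differed between days, and their part in the rises was not tested. The size of these rises turned on D28 replicate A: without it the same 4 genes passed at 3.60 for NPAS4, 1.89 for EGR1, 1.61 for FOS and 1.65 for FOSB, where 23.8% of all genes were called in either direction. Without D11 replicate A or D11 replicate B none passed, and 2.77% and 2.74% of all genes were then called in either direction. From D28 to D45, 0 of the 7 passed in edgeR, against 6.1% of all genes in either direction. At an unadjusted p under 0.05 there were 4, DESeq2 called 4 of the 7 and 15.9% of all genes, and EGR1 came nearest in edgeR (-2.87, adjusted p = 0.0543). Without D28 replicate A 2 passed, where 13.3% of all genes were called, and without D28 replicate B 6 passed, where 40.4% were. From D11 to D45, NPAS4 was higher by 2.39 ± 0.60 (adjusted p = 0.0259, against 14.2% of genes called higher). It did not pass in cells with 3 or more STMN2 UMIs (1.63, adjusted p = 0.0736) or in cells thinned to 2000 UMIs (1.99, adjusted p = 0.0834), nor without D11 replicate A, D11 replicate B or D45 replicate A, and 4 of the 7 passed without either D28 library, where 46.3% and 46% of all genes were called in either direction.

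STMN2-positive cells held more NPAS4 and less EGR1, FOS, FOSB and JUN than the other cells of the same library on D28 and D45. NPAS4 was at 8.47 CPM in STMN2-positive cells and 0.781 in other cells of D28 replicate A, and at 3.93 and 0.308 in replicate B. On D45 the levels were 2.25 and 1.13 CPM in replicate A and 1.11 and 0.373 in replicate B. On D11 they were 0.307 and 0.124, and 0.216 and 0.165. NPAS4 was thus higher in the STMN2-positive cells of all 6 libraries, and 97.5% and 97.0% of its UMIs on D28 came from them, where they held 78.4% and 71.7% of all UMIs.

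EGR1 went the other way once the organoids were past D11. Its levels in STMN2-positive and other cells were 170 and 295 CPM in D28 replicate A, 38.2 and 60.5 in D28 replicate B, 15.0 and 22.6 in D45 replicate A, and 17.9 and 26.6 in D45 replicate B. On D11 they were 8.19 and 7.21, and 8.13 and 6.95, so the STMN2-positive cells were the higher ones there. FOS was at 230 and 345 CPM in D28 replicate A, 75.7 and 102 in replicate B, 47.4 and 59.9 in D45 replicate A, and 47.7 and 62.6 in replicate B. FOS was lower in the STMN2-positive cells of all 4 of these libraries. JUN showed 450 and 670 CPM in D28 replicate A, 245 and 304 in replicate B, 243 and 288 in D45 replicate A, and 252 and 277 in replicate B.

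**Figure D2:**
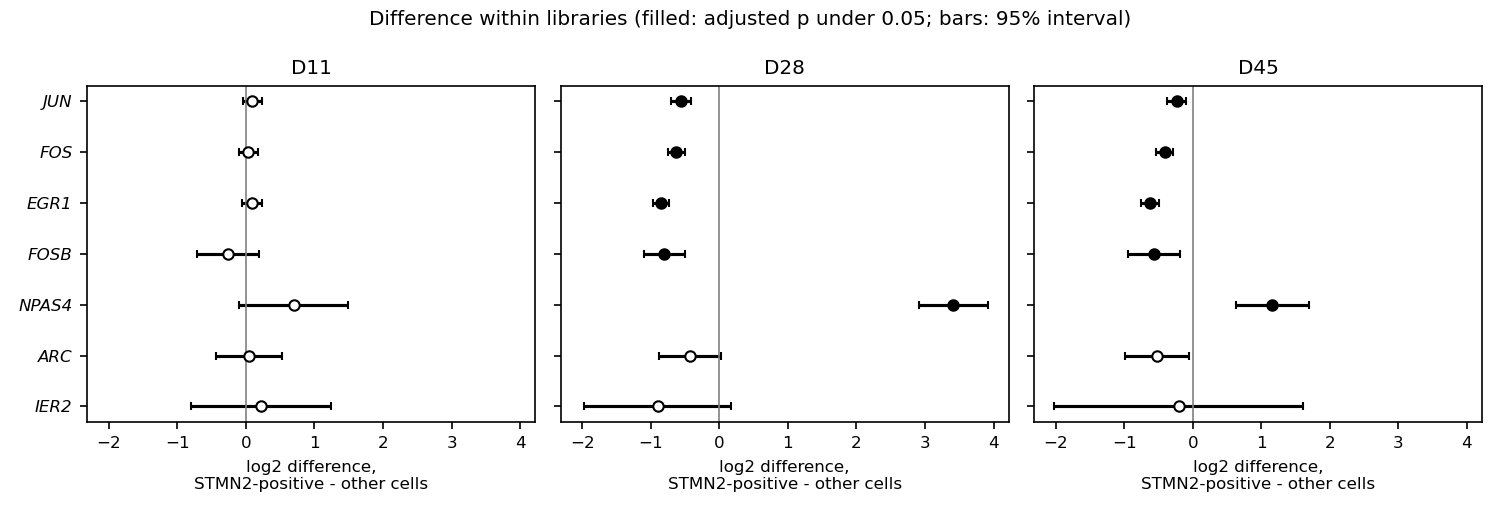
Fitted log2 difference of STMN2-positive cells minus other cells for each gene on each day, from 12 summed profiles with library as a block; bars are 95% intervals. NPAS4 lay to the right of 0 on D28 (3.42) and D45 (1.16), while EGR1, FOS, FOSB and JUN lay to the left, and on D11 every interval held 0.

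These class differences were tested on 12 sums, a pair per library, with the library as a block, since both sums of a library come from the same organoids (edgeR, 21663 genes). On D28, NPAS4 was higher in STMN2-positive cells by 3.42 ± 0.22 on the log2 scale (adjusted p = 5.44e-06), where 17.2% of all genes were called higher. EGR1 (-0.85 ± 0.05, adjusted p = 4.6e-06), FOSB (-0.80 ± 0.13, adjusted p = 0.000978), FOS (-0.62 ± 0.06, adjusted p = 2.7e-05) and JUN (-0.56 ± 0.06, adjusted p = 0.000104) were lower, where 23.6% of all genes were called lower. Without the library block only NPAS4 passed, with 5.55% of all genes called in either direction. ARC (-0.43, 95% interval -0.88 to 0.02) and IER2 (-0.90, -1.97 to 0.18) did not pass. Cells with 3 or more STMN2 UMIs were also set against cells with none, leaving out those between. The differences on D28 were then wider, at -1.38 for EGR1 and -0.99 for FOS.

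On D45 the same 5 genes passed with smaller differences. NPAS4 was higher by 1.16 ± 0.24 (adjusted p = 0.00527, against 15.1% of genes called higher). EGR1 (-0.63 ± 0.06, adjusted p = 0.000134), FOSB (-0.57 ± 0.17, adjusted p = 0.0297), FOS (-0.41 ± 0.06, adjusted p = 0.000777) and JUN (-0.23 ± 0.06, adjusted p = 0.0197) were lower, against 15.8% of genes called lower. ARC stood at -0.52 (adjusted p = 0.0892). Without D45 replicate A 3 of the 7 passed, without D45 replicate B 2 passed, and without the library block none did, in fits that called 13.2%, 17.8% and 0.522% of all genes in either direction. With 3 or more STMN2 UMIs as the rule, EGR1 stood at -1.26, FOSB at -1.26 and FOS at -0.83, each further from 0.

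On D11 none of the 7 differed between the classes in edgeR, where 32.5% of all genes were called in either direction. None had an unadjusted p under 0.05, and DESeq2 called 0 of the 7 and 27.7% of all genes. NPAS4 stood at 0.70 (95% interval -0.10 to 1.49) and EGR1 at 0.09 (-0.05 to 0.24). With 3 or more STMN2 UMIs as the rule 2 passed, NPAS4 at 1.82 (adjusted p = 0.0061) and JUN at 0.34 (adjusted p = 0.0402), both higher in the STMN2-positive cells, in a fit that called 50.1% of all genes. Without D28 replicate B, JUN passed at 0.17 (adjusted p = 0.0127), where 34.8% of all genes were called.

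The change of these class differences between days was tested directly in the same fit. From D11 to D28 the NPAS4 difference grew by 2.72 ± 0.44 (edgeR, adjusted p = 0.00462, against 4.96% of genes called higher). The differences of EGR1 (-0.94 ± 0.08, adjusted p = 0.000202), FOS (-0.66 ± 0.08, adjusted p = 0.00117) and JUN (-0.65 ± 0.09, adjusted p = 0.00198) moved downward, against 5.83% of genes called lower. From D28 to D45 the NPAS4 difference shrank, by -2.26 ± 0.37 (adjusted p = 0.00742, against 4.48% of genes called lower). Between D11 and D45 those of EGR1 (-0.72 ± 0.09, adjusted p = 0.000774), FOS (-0.45 ± 0.08, adjusted p = 0.0075) and JUN (-0.33 ± 0.09, adjusted p = 0.0367) were lower, against 7.75% of genes. The growth of the NPAS4 difference to D28 did not pass in cells thinned to 2000 UMIs (0.76, adjusted p = 0.878) or without D11 replicate B (2.24, adjusted p = 0.0613), and none of these changes passed without the library block, where at most 1.16% of all genes were called. In the thinned cells only 2 and 5 cells of the D11 libraries held an NPAS4 UMI. The shrinking of the NPAS4 difference from D28 to D45 did not pass in the thinned cells either, nor without D45 replicate A, and 2 of the 7 genes passed in that comparison without D28 replicate B (9.12% of all genes in either direction). Without D11 replicate A or D11 replicate B, 1 of the 3 falls between D11 and D45 passed, where 4.98% and 5.89% of all genes were called in either direction.

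Cells were also grouped by panels of marker genes, taking a cell when it held 3 or more markers of a panel and more of it than of any other. The neuron panel (DCX, ELAVL3, ELAVL4, MAPT, SNAP25, GAP43, SYT1, INA) is stricter than STMN2 alone and held 12.7% and 9.77% of the D11 cells, 37.1% and 45.5% of the D28 cells and 40% and 38.4% of the D45 cells. NPAS4 in these cells was at 0.615 and 0.531 CPM on D11, at 16.6 and 6.15 on D28, then at 2.46 and 1.62 on D45. Neuron-panel cells held 94.8% and 93.2% of the NPAS4 UMIs of the D28 libraries, 68.5% and 81.4% on D45, and 50% and 39.4% on D11. On D28 NPAS4 was at 0.310 and 0.135 CPM in floor plate cells (8 and 5 UMIs), which is 1.87% and 2.19% of the neuron-panel level, where STMN2 was at 3% and 3.99% of its own. In fibroblast-panel cells of D28 replicate A, NPAS4 was at 3.24% and STMN2 at 2.51% of the neuron-panel level. The NPAS4 counts in these non-neuronal panels were of the size that STMN2 shows there, and the part of free RNA in them was not tested. Cells of no panel, which had few UMIs, held NPAS4 at 1.08 and 0.770 CPM on D28 and at 2.55 and 0.749 on D45, the third of these close to the neuron-panel level of its library.

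No NPAS4 UMI was found in the 239 and 351 astrocyte-panel cells of D45, which allows up to 1.3 and 0.814 CPM, nor in the 148 and 66 ciliated-panel cells, which allows up to 1.29 and 2.86 CPM. In 1425 fibroblast-panel cells of D45 replicate B it was also at 0, which allows up to 0.17 CPM, against 1.62 in the neuron-panel cells of that library.

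On D28 EGR1 and FOS were highest in fibroblast-panel cells. EGR1 was at 444 and 243 CPM in the fibroblast-panel cells of D28 (1267 and 103 cells) and at 53.6 and 45.7 on D45, against 73.7, 29.3, 9.39 and 9.34 in neuron-panel cells of the same libraries. That is 6.03, 8.31, 5.71 and 4.9 times the neuron-panel level. In neuron-panel cells mean EGR1 was 9.93 ± 1.55 CPM on D11 and 9.36 ± 0.04 on D45 (± SD, n = 2 libraries). EGR1 thus did not lie above its D11 level there on D45, unlike in whole libraries. Mean FOS in neuron-panel cells did, at 21.5 ± 3.7 on D11 and 37.7 ± 2.4 on D45. FOS was at 437 and 322 CPM in fibroblast-panel cells on D28 and 73.8 and 69.3 on D45, against 150, 61.9, 39.3 and 36.0 in neuron-panel cells. For both genes every fibroblast-panel value exceeded the neuron-panel value of its library. On D45 cells with mitotic markers (96 and 154 cells) held EGR1 at 54.8 and 34.2 CPM, close to the fibroblast-panel cells in replicate A and below them in replicate B, and FOS at 88.7 and 70.3, above them in both.

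The floor plate is the ventral midline tissue that gives rise to midbrain dopaminergic neurons. EGR1 in floor plate cells (CORIN, NTN1, SPON1, FOXA1, SHH, FERD3L) went from 4.17 and 4.16 CPM on D11 to 247 and 42.0 on D28 and 7.07 and 5.52 on D45. JUN in floor plate cells was at 143 and 157, 771 and 319, and 348 and 371 CPM. Oligodendrocyte-panel cells held EGR1 at 36.2 and 31.9 CPM on D45 and astrocyte-panel cells at 20.4 and 24.1, both above the neuron-panel cells.

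The D28 replicates were also set side by side within these groups. Replicate A over B was 2.52 for EGR1 in neuron-panel cells, 5.87 in floor plate cells and 1.83 in fibroblast-panel cells. For FOS the ratios were 2.43, 3.43 and 1.35, for JUN 1.22, 2.42 and 1.21, and for NPAS4 in neuron-panel cells 2.7. FOSB had ratios of 2.4, 3.01 and 1.14. Ratios in neuron-panel and fibroblast-panel cells lay below those of the whole libraries for EGR1, FOS, FOSB and JUN, and those in floor plate cells lay above them except for FOSB. The part of the makeup of the libraries in the gap between them was not tested.

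Neuron-panel cells with dopaminergic genes had NPAS4 at 19.7 and 4.18 CPM on D28 (330 and 292 cells, 76 and 16 UMIs), on either side of the 16.6 and 6.15 of all neuron-panel cells. Neuron-panel cells with at least 2 of GAD1, GAD2 and SLC32A1, the genes of GABA synthesis and loading, had JUN at 119 CPM in D28 replicate B (495 cells) and at 150 and 130 on D45, against 208, 221 and 236 in all neuron-panel cells. JUN was lower in them in each D28 and D45 library, including D28 replicate A, where only 22 such cells were found (59.2 against 254 CPM). The D11 libraries held 11 and 19 such cells, too few for a level. Mean JUN was also lower in the neuron-panel cells with dopaminergic genes than in all neuron-panel cells. It was at 144 against 185 CPM on D11, 175 against 231 on D28 and 193 against 228 on D45. Panel levels have no test here, because cells of a library are not replicates.

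**Figure D3:**
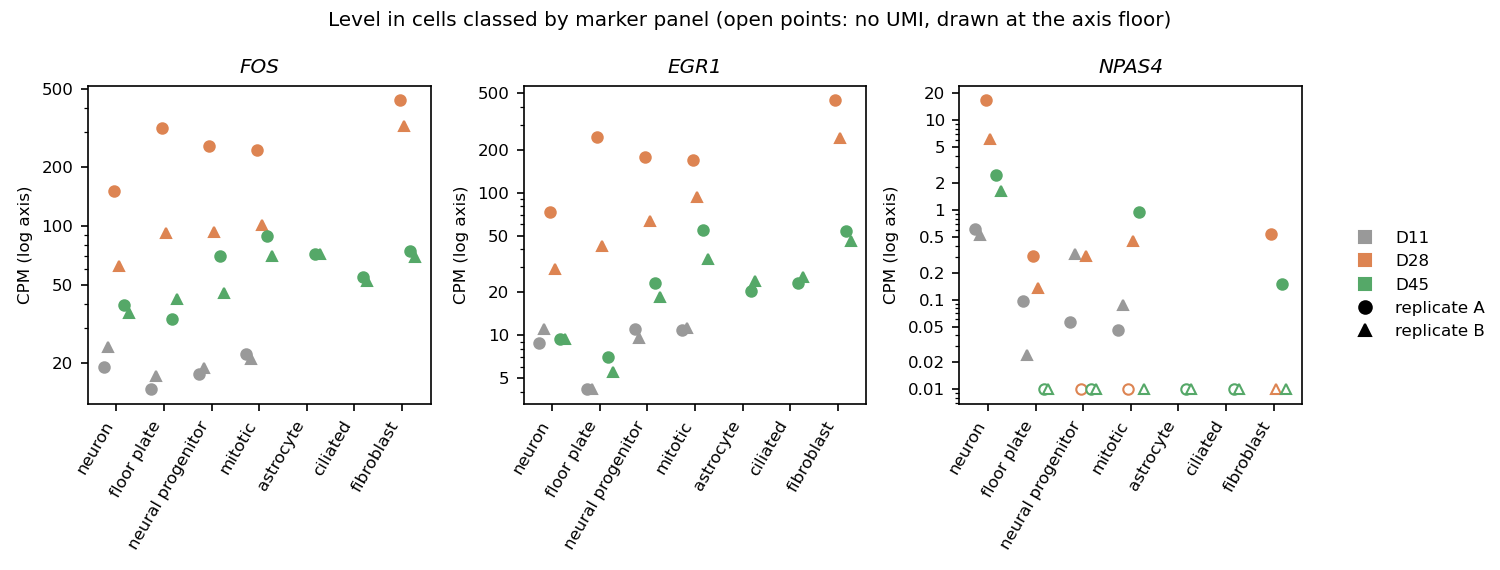
Level (CPM, log axis) of genes of the set, FOS, EGR1 and NPAS4 among them, in marker-defined cells of each library. Points are libraries, and open points have 0 UMIs. NPAS4 is highest in neuron-panel cells on D28 (16.6 and 6.15 CPM), and EGR1 in fibroblast-panel cells on D28 (444 and 243 CPM).

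The number of UMIs per cell differed between the classes and bears on these levels. In D28 replicate A the median was 6035 UMIs in STMN2-positive and 1098 in other cells, in D45 replicate A 3592 and 1106.5, and in D45 replicate B 5672 and 1531.5. In D28 replicate B (8271 and 6941) and on D11 (11270 and 10589, 9224.5 and 8590) the medians were nearer. Levels were therefore read again within ranges of UMIs per cell.

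FOS in STMN2-positive cells of D28 replicate A was at 222 CPM in cells with under 2000 UMIs, 111 from 2000, 154 from 5000, 260 from 10000 and 284 from 20000 UMIs upward, each range ending where the next begins. In other cells of that library FOS was at 231, 209, 378, 360 and 332 CPM over the same ranges. The classes were thus nearly level at both ends and furthest apart from 5000 to 10000 UMIs, where the FOS ratio of STMN2-positive to other cells was 0.408 and 0.554 on D28 and 0.643 and 0.473 on D45. EGR1 had ratios of 0.265, 0.395, 0.282 and 0.324 in that range in the same libraries. At 20000 or more UMIs the EGR1 ratios were 0.822, 0.780, 1.00 and 0.826, and under 2000 UMIs they were 0.934, 0.579, 1.00 and 1.11. On D11 the EGR1 ratios were above 1 from 2000 to 5000 UMIs (2.31 and 1.47), from 5000 to 10000 (2.00 and 1.39) and from 10000 to 20000 (1.04 and 1.27), and below 1 from 20000 upward (0.809 and 0.745). Under 2000 UMIs the D11 EGR1 ratios were 0 and 0.749, from 0 and 14 UMIs in STMN2-positive cells. The FOS ratios of D11 from 5000 to 10000 UMIs were 1.03 and 1.41.

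NPAS4 in STMN2-positive cells of D28 replicate A was at 4.49, 7.88, 13.6, 8.25 and 4.53 CPM from the shallowest to the deepest range, and in replicate B at 5.92, 7.95, 5.64, 3.41 and 1.56 CPM. In other cells with 5000 to 10000 UMIs NPAS4 was at 0.357 and 0.240 CPM, from 1 UMI each. Below 2000 UMIs NPAS4 was measured lower in the STMN2-positive cells than in the others in 4 of the 6 libraries, on counts of 0 to 11 UMIs. The levels were 4.49 and 7.35 CPM in D28 replicate A and 1.23 and 2.80 in D45 replicate B. On D11 no NPAS4 UMI was found in STMN2-positive cells that shallow, which allows up to 8.23 and 1.65 CPM, against 3.79 and 2.57 in the others. In cells that shallow the absence of an STMN2 UMI says little about the cell.

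**Figure D4:**
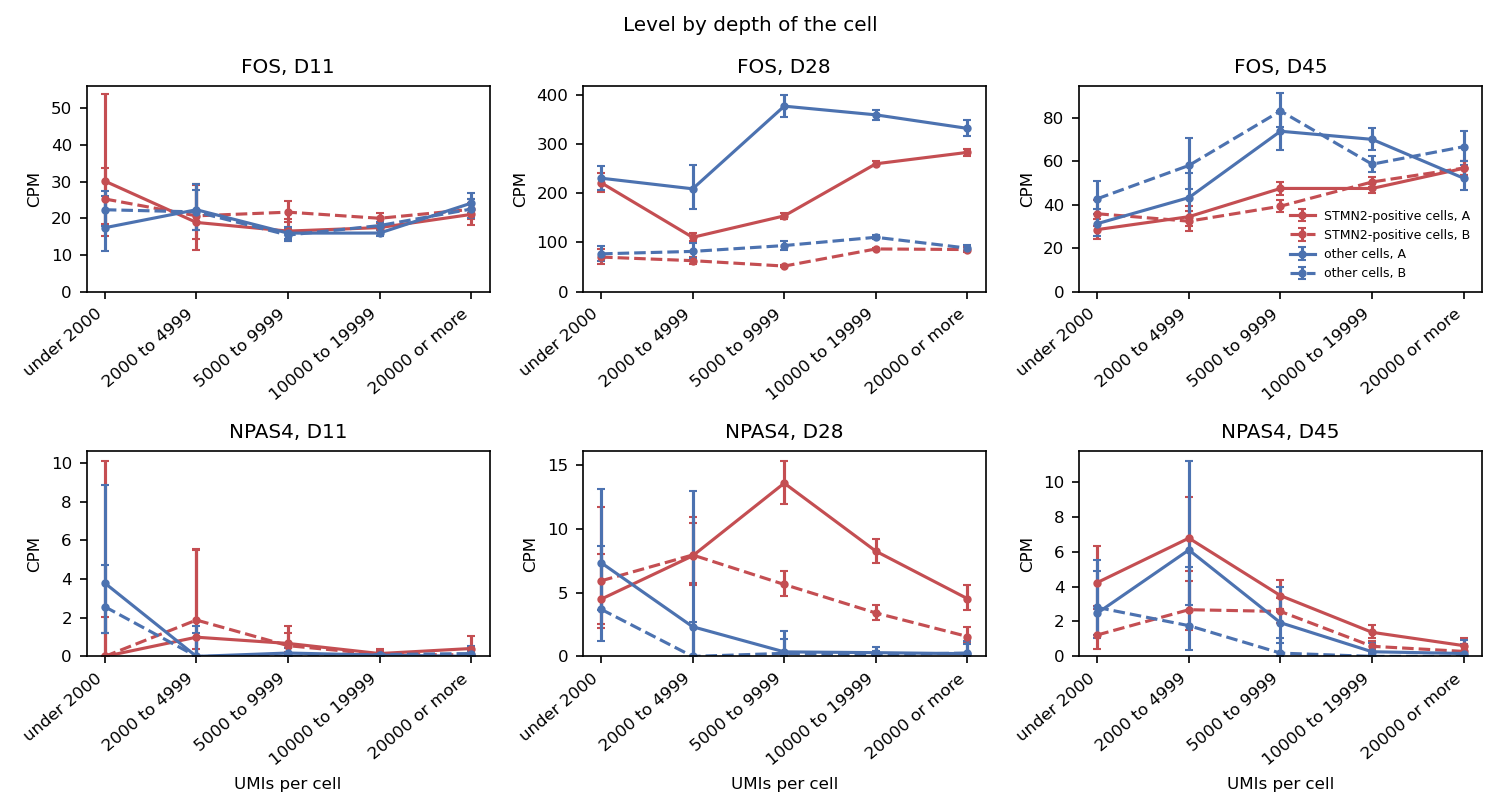
Level (CPM) of genes of the set, FOS and NPAS4 among them, against the range of UMIs per cell, for STMN2-positive and other cells. Each line is 1 class in 1 library. FOS in D28 replicate A parts most from 5000 to 10000 UMIs (154 against 378 CPM), and NPAS4 is at most 0.357 CPM in other cells of D28 with 5000 UMIs or more.

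The share of cells with a UMI of a gene was compared after every cell had been thinned to 2000 UMIs. FOS was detected in 3.28% ± 0.25 of D11 cells, 20.6% ± 12.1 of D28 cells and 7.85% ± 0.66 of D45 cells (mean ± SD, n = 2 libraries), against 13.2%, 37.4% and 16.1% in cells as sequenced. EGR1 was detected in 1.18% ± 0.09, 15.6% ± 11.9 and 2.87% ± 0.44 of thinned cells, and in 4.93%, 28.5% and 6.95% as sequenced. For JUN the thinned shares were 23.1%, 38.2% and 31.1%. NPAS4 was found in 0.0247%, 1.13% and 0.313% of thinned cells (0.129%, 2.89% and 0.749% as sequenced). Within D28, NPAS4 was found in 1.85% ± 1.02 of STMN2-positive and 0.116% ± 0.109 of other thinned cells, the class being read from the thinned cells too, and within D45 in 0.479% ± 0.146 and 0.143% ± 0.178. Thinned to 1000 UMIs, the D45 shares of NPAS4 did not part, at 0.196% ± 0.072 and 0.202% ± 0.129, while those of D28 did, at 0.985% ± 0.530 and 0.104% ± 0.024. On D45, thinned STMN2-positive cells had a FOS UMI in 5.46% and an EGR1 UMI in 1.53% of cells, and other cells in 10.3% and 4.25%. On D11 the order was the other way, with a FOS UMI in 3.92% and an EGR1 UMI in 1.81% of STMN2-positive cells, and in 3.16% and 1.06% of other cells.

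On D28 and D45, EGR1 was detected more often in cells with a FOS UMI than in cells without one. Among thinned cells of D28 replicate A, EGR1 was detected in 51.7% of the FOS-positive and 32.1% of the FOS-negative cells that lacked STMN2, and in 25.6% and 10.3% of those with STMN2. In D28 replicate B the EGR1 shares were 19.1% and 8.27% without STMN2, and 10.3% and 4.33% with it. On D45 the EGR1 shares in cells without STMN2 were 9.50% and 3.25% in replicate A, and 11.2% and 3.84% in replicate B. JUN was detected in 70.25% of FOS-positive and 52.6% of FOS-negative cells without STMN2 in D28 replicate A, and in 53.2% and 34.6% in replicate B. The 3 genes EGR1, FOS and JUN were detected together in 15.4% of cells without STMN2 and 2.81% of cells with it in D28 replicate A, and in 1.79% and 0.438% in replicate B. These shares have no test, as cells of a library share their source and differ in type.

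NPAS4-positive cells were few: 144 STMN2-positive thinned cells in D28 replicate A and 67 in replicate B. FOS was detected in 34.7% of these against 21.6% of NPAS4-negative STMN2-positive cells in replicate A, and in 31.3% against 9.22% in replicate B. EGR1 was detected in 15.3% against 13.6% in replicate A and in 16.4% against 4.77% in replicate B. JUN was detected in 21.5% against 33.5% in replicate A and in 35.8% against 28.7% in replicate B, so its direction differed between the replicates.

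Over the 12 sums (STMN2-positive and other cells of 6 libraries), log2(CPM + 1) of EGR1 had a Pearson r of 0.992 with FOSB, 0.988 with FOS and 0.958 with JUN, and FOS had an r of 0.981 with JUN. NPAS4 had an r of 0.49 to 0.572 with these 4 genes. The sums share libraries and depth, and D28 replicate A enters each of these values, so they are descriptions. Among 9306 named genes with a mean of at least 10 CPM, the patterns most like EGR1 were those of TMBIM6 (0.988), FOS (0.988) and TM2D1 (0.987). For FOS they were EGR1, TM2D1 (0.986) and MGAT1 (0.985), for FOSB EGR1, GGCX (0.987) and BCL10 (0.985), and for JUN FOS, HEXA and GAS6 (0.973). For NPAS4 they were COPG2 (0.959), DGUOK (0.938) and DUSP12 (0.926), for ARC SLC35C2 (0.96), SRXN1 (0.928) and LMNA (0.927), and for IER2 C8orf76 (0.953), ROMO1 (0.92) and EMD (0.918).

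Other genes of the same response were followed as a list of 36, of which 34 were tested. From D11 to D28 in whole organoids, 11.8% of the list was called higher and 2.94% lower, no more than the 12.5% and 10.6% of all genes, with a median of 0.27 against 0.03. The 4 higher were SGK1 (2.25), EGR2 (3.63), EGR4 (3.35) and FOSL1 (1.92 on the log2 scale), and the 1 lower was DUSP6 (-3.32). SGK1 encodes a kinase, EGR2 and EGR4 are relatives of EGR1, and DUSP6 encodes a phosphatase that switches off MAP kinase. Between D28 and D45, 1 was called higher (NR4A3, 1.39) and 3 lower (DUSP6, ATF3 and TRIB1), 2.94% and 8.82% of the list against 4.51% and 4.95% of all genes, with a median of -0.33 against -0.03. From D11 to D45 the list's shares, 20.6% higher and 17.6% lower, were near the 17.3% and 17.4% of all genes. The 7 higher included SGK1 (2.90), CSRNP1 (1.63) and NR4A3 (1.27), and the 6 lower included DUSP6 (-4.36), CCN2 (-2.26) and TRIB1 (-1.49). In STMN2-positive against other cells, 24 of the 34 (70.6%, against 23.6% of all genes) were lower and 0 higher on D28 (edgeR, median -0.55, against -0.06 over all genes), with 2 higher at an unadjusted p under 0.05 and 0 in DESeq2, where 17.2% of all genes were called higher. On D45 16 (47.1%, against 15.8% of all genes) were lower, among them IER3 (-0.95), KLF4 (-0.88) and SIK1 (-0.63), and 1 higher, KLF6 (0.54), or 2.94% of the list against 15.1% of all genes. On D11 13 were already lower (38.2%, against 19.4% of all genes) and 4 higher (11.8%, against 13.1%), where none of the 7 passed. On D28 EGR1, FOS, FOSB and JUN thus lay on the side of most of this list, and NPAS4 on the other.

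Neuronal genes that respond to activity later, such as secreted peptides, formed a list of 18 with 17 tested. From D11 to D28, 10 were called higher and 1 lower in whole organoids (58.8% and 5.88%, against 12.5% and 10.6% of all genes), with a median of 1.59. Between D11 and D45, 13 were higher and 1 lower (76.5% and 5.88%, against 17.3% and 17.4%), with a median of 1.42. Over that span SCG2, a granin of dense-core vesicles, rose by 6.38, PCSK1, a prohormone convertase, by 3.11 and VGF by 1.49, and PLK2 fell by 1.05. Between D28 and D45, edgeR called 0 higher (3 at an unadjusted p under 0.05, 1 in DESeq2) and 1 lower, PCSK1 (-1.49), or 5.88% of the list, where 4.51% of all genes were called higher and 4.95% lower. Between the classes on D11, 8 were already higher in STMN2-positive cells (47.1%, against 13.1% of all genes) and 3 lower (17.6%, against 19.4%). On D28, 6 were called higher in STMN2-positive cells (35.3%, against 17.2% of all genes), among them NRN1 (3.71) and VGF (2.42), and 2 lower (11.8%, against 23.6%), INHBA (-1.35) and PCSK1 (-0.41). PCSK1 thus had opposite signs on D28 and D45. In STMN2-positive cells of D45, NRN1 (2.23), VGF (1.69) and PCSK1 (1.36) were among 9 called higher than in other cells (52.9%, against 15.1% of all genes), while INHBA (-0.76) and PLK2 (-0.54) were lower. From D11 to D28 the class difference moved downward for 7 (41.2%, against 5.83% of all genes) and upward for 1 (5.88%, against 4.96%). From D11 to D45 it moved downward for 7 (41.2%, against 7.75%) and upward for 4 (23.5%, against 8.1%). The library sums of this list were 159.7 and 180.4 CPM on D11 and 976.5 to 1343 afterwards, and STMN2-positive cells were 26.8% and 33.4% of cells on D11 against at least 68.4% later. Within STMN2-positive cells alone the sums were 257.4 and 276.4 CPM on D11 and 1048 to 1360 afterwards. In that class 8 of the 17 were called higher and 1 lower from D11 to D28 (47.1% and 5.88%, against 8.57% and 7.46% of all genes), with a median of 1.14.

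The relay from signal to transcription was followed through 24 of 25 listed genes of the calcium, cAMP, MAP kinase, CREB and SRF pathways. From D11 to D28, 3 were called higher and 1 lower (12.5% and 4.17%, against 12.5% and 10.6% of all genes), with a median of -0.04, so the list held no more calls than all genes did. From D11 to D45, 7 were higher (29.2%, against 17.3%), among them the calmodulin kinases CAMK2D (1.74) and CAMK4 (1.34) and the factor MEF2D (1.17), and 4 lower (16.7%, against 17.4%), among them the kinases RPS6KA3 (-1.42) and PRKACA (-0.83) and SRF itself (-0.94). In STMN2-positive cells of D45, CAMK4 (1.60), CAMK2B (1.51) and PRKACB (0.60) were among 6 called higher (25%, against 15.1% of all genes), and ELK4 (-0.45), MEF2C (-0.43) and MRTFB (-0.37) among 4 called lower (16.7%, against 15.8%).

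Heat shock genes, mostly chaperones and their helpers that can rise with handling of tissue, were 16 listed and 13 tested. From D11 to D28, 1 was called higher (HSPH1, 1.36) and 1 lower (BAG3, -0.73), 7.69% each against 12.5% and 10.6% of all genes, and from D28 to D45 edgeR called 0 of 13, where 4.51% of all genes were called higher and 4.95% lower. There were 3 higher and 2 lower at an unadjusted p under 0.05 and 2 and 1 in DESeq2. From D11 to D45, HSPA6 (2.28), HSPH1 (2.11) and HSP70.2 (1.31) were higher (23.1%, against 17.3% of all genes) and HSPD1 (-0.88) lower (7.69%, against 17.4%). HSP70.2 belongs to a family of closely similar genes whose reads the counting could split. In STMN2-positive against other cells, 8 were lower (61.5%, against 23.6% of all genes) and 0 higher on D28 (0 higher also at an unadjusted p under 0.05 and in DESeq2, against 17.2% of all genes), and 4 were higher (HSPH1, HSPA6 and DNAJA1 among them, at 0.75, 0.53 and 0.33) and 4 lower on D45 (30.8% each, against 15.1% and 15.8% of all genes). The summed level of this list stayed between 4611 and 5533 CPM in the 6 libraries, with D28 replicate B the highest. The part of tissue handling in the levels of the 7 genes was not tested.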

How the data were processed

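The 6 libraries were made with the GEM-X 3' v4 kit. The authors used Cell Ranger 8.0.1 and the Sscrofa11.1 build to count UMIs, and deposited these raw counts by barcode, without normalization or pooling of replicates. Seurat 4.3.0 is also named in the submitters' processing notes. No column of other samples was used.

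Cells with 200 to 7000 detected genes and at most 10% of UMIs from 13 mitochondrial genes were kept. Counts were summed per library, and per library and STMN2 class, and tested with edgeR 4.0.16 (TMM, filterByExpr, quasi-likelihood test) in R 4.3.3, adjusted over all genes tested (threshold 0.05). Day comparisons used day alone, and class comparisons had library as a block. Sums rather than cells were tested because cells are not replicates. The share of all genes at an unadjusted p under 0.05 was not computed, so counts at that level have no background beside them. Alternatives were DESeq2 1.42.0, its size factors, no filter, each library left out, replicate letter as block or no block, thinning to 2000 UMIs, at least 3 STMN2 UMIs, and leaving out the 5% of cells with the most UMIs. Doublets were treated by the upper limit on detected genes, which the study used to remove multiplets, and no doublet caller was run. Changing library depth per cell alters which cells count as STMN2-positive. Thinning left out cells with fewer UMIs than its target. The rule of 3 or more STMN2 UMIs set such cells against those with none, and left out the cells between. The fits were also run on simulated counts with known differences, and the outcome is not reported here. CPM, shares and ranges of UMIs per cell were computed with Python 3.11.15.

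The 7 genes and the lists were chosen with earlier results of these data known. Listed genes were named when among the 3 with the lowest p in each direction from D11 to D45 or between classes on D45. The other listed genes named, and the split of neuron-panel cells by dopaminergic and GABA genes, were chosen after the data were seen. Pattern likeness names up to 3 genes per member.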

Additional observations from a re-analysis of the deposited data

Results flagged for a closer look

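The difference between STMN2-positive and other cells changed between days for 4 of the 7 genes, by a test of that change itself. From D11 to D28 it changed by 2.72 (log2) for NPAS4, -0.94 for EGR1, -0.66 for FOS and -0.65 for JUN. From D28 to D45 it changed by -2.26 for NPAS4. From D11 to D45 it changed by -0.72 for EGR1, -0.45 for FOS and -0.33 for JUN. Of all genes, 10.8% were called in either direction from D11 to D28, 7.85% from D28 to D45 and 15.8% from D11 to D45. Neither NPAS4 change passed in thinned cells. The edgeR adjusted p-values, and other fits in which calls were lost, are given with these results above.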

How the results depend on the processing

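Of 371 re-computations of the 29 calls on single genes, 306 kept the direction and the call, 65 kept the direction but lost the call, and none reversed. The calls lost were 12 without D11 replicate A, 13 without D11 replicate B, 8 without D45 replicate A, 5 without D45 replicate B, 17 with no replicate block, 2 with the replicate block, 5 in thinned cells, 2 with 3 or more STMN2 UMIs and 1 without the top 5% of cells by UMIs. Leaving out D28 replicate A or B, DESeq2, its size factors and no filter on low counts lost none. A library left alone on its day was assumed to vary like the others.

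With 1 library left out at a time, the number of the 7 genes called in whole organoids ran from 1 to 5 (D11 to D28), from 0 to 6 (D28 to D45) and from 0 to 6 (D11 to D45). In STMN2-positive cells it ran from 0 to 5, from 0 to 6 and from 0 to 4. Between the classes it ran from 0 to 1 on D11, stayed at 5 on D28 and ran from 2 to 6 on D45. For the changes of the class difference it ran from 3 to 4 (D11 to D28), from 0 to 2 (D28 to D45) and from 1 to 3 (D11 to D45). The share of all genes called moved with these counts: over the same fits it ran, in this order, from 4.82% to 46%, 0% to 43.8% and 12.2% to 53.7% in whole organoids, from 2.74% to 38.8%, 0% to 40.4% and 6.94% to 46.3% in STMN2-positive cells, from 10.9% to 38.2%, 31.9% to 37.9% and 13.2% to 37.4% between the classes, and from 3.63% to 13.7%, 1.5% to 12.5% and 4.98% to 23.3% for the changes.

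From D28 to D45, DESeq2 called 4 in whole organoids (19.6% of all genes) and 4 in STMN2-positive cells (15.9%), where no filter called 2 (5.92%), thinned cells 1 (3.66%), and cells without the top 5% by UMIs 1 (5.85%). From D11 to D45 in STMN2-positive cells, thinning and the rule of 3 or more STMN2 UMIs each gave 0 (24.3% and 23.6%). That rule gave 2 between the classes on D11 (50.1%). Thinning gave 0 for the change of the class difference from D28 to D45 (9.89%).

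The replicate letter does not pair the libraries: the A minus B differences of 22197 genes had r of -0.321 (D11 with D28), 0.048 (D11 with D45) and -0.195 (D28 with D45). With the letter as a replicate block, 0 of the 7 were called from D28 to D45 in whole organoids, and 2.86% of all genes were (9.46% without it). With no replicate block for library, 1 of the 7 was called between the classes on D28, 0 on D45 and 0 in each change of the class difference (0, 0 and 0), and of all genes 5.55%, 0.522%, and 0.439%, 0% and 1.16%. The cause was not tested.

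Shares of cells moved with depth and with the cells counted, since thinning left out cells with fewer UMIs than its target. As sequenced, they were 13.2%, 37.4% and 16.1% for FOS on the 3 days, 4.93%, 28.5% and 6.95% for EGR1, and 0.129%, 2.89% and 0.749% for NPAS4. Thinned to 1000 UMIs they were 1.66%, 12.1% and 3.91% for FOS, 0.529%, 8.6% and 1.4% for EGR1, and 0.0397%, 0.553% and 0.199% for NPAS4. At 1000 UMIs the D45 share of NPAS4 no longer parted the classes (0.196% STMN2-positive, 0.202% other). Counts were lowest for IER2 in every library, and low for NPAS4 and FOSB on D11, so counting error is widest there.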
